A study of Mus musculus with 9 samples.

Results

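Cadherins and protocadherins are cell surface proteins that bind calcium, and most of them hold cells to cells of the same or a related kind. Members were the rows of the expression table named Cdh or Pcdh followed by a number, together with the Pcdha, Pcdhb and Pcdhg rows, and Cdh5, an endothelial gene, was left out. These were 93 of the 24487 rows. Of these, 34 stand as genes of their own, called non-clustered here, and the rest lie in gene clusters with 15 Pcdha, 22 Pcdhb and 22 Pcdhg rows.

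The study sequenced RNA of the whole midbrain (5 libraries) and of its dopaminergic neurons (4 libraries), both from mice of the C57BL/6 background with no treatment named. The labels name no age, sex or allele and no way of isolating the neurons' RNA, although the deposited table is named with the term bacTRAP, which usually stands for the capture of tagged ribosomes from 1 cell type. Whether each library is another animal is not said either. The p-values set the difference between groups against the spread within them, and that spread may be in part or wholly technical.

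Classical cadherins bind the same or a similar cadherin on the next cell through their outer domains and hold catenins, the link to actin, with their inner tail. In the midbrain and elsewhere in the brain they take part in sorting neurons, guiding axons and building synapses. The δ-protocadherins have other tails that reach regulators of actin. Clustered protocadherins give neurons a varied surface code used in self-recognition: in Pcdha and Pcdhg each variable first exon has its own promoter and is joined to the same constant exons, whereas Pcdhb genes have no constant exons.

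Values are FPKM, read fragments scaled to the length of the transcript and the depth of the library, so levels of different genes can be set side by side. Depth, estimated from single-exon genes, was about 16.4 to 33.7 megareads for whole midbrain and 47.6 to 63 megareads for dopaminergic libraries. One read per kilobase was then worth 0.0297 to 0.0611 FPKM in whole midbrain and 0.0159 to 0.021 in dopaminergic libraries. Across genes, log2 values of dopaminergic libraries correlated with each other at 0.99 to 0.991 (Pearson's r), those of whole midbrain libraries 1, 3, 4 and 5 at 0.947 to 0.962, and whole midbrain library 2 with those at 0.903 to 0.906. That library stands apart, and named calls that change without it are given both ways. The summed FPKM of all rows was 309275 to 409130 in whole midbrain and 506466 to 521822 in dopaminergic libraries, and scaling to equal sums (TPM) moved the median log2 change of all tested genes from 0.04 to -0.55, a shift of -0.59. Changes under TPM are therefore also given relative to that median. Taking off the median largely undoes the scaling, so these relative values are no separate check of the FPKM changes.

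The dopaminergic label was checked against 6 markers of dopamine neurons (Th, Slc6a3, Slc18a2, Ddc, Nr4a2 and Pitx3), which all rose, with a summed level of 205 to 237 FPKM in whole midbrain and 3646 to 4057 in dopaminergic libraries. Of 67 tested markers of other cell types in 9 lists, 65 fell and 0 rose (limma); Ttr and Chat did not pass, and their log2 changes were below 0 too. Of the 69 markers none was at 0 in every dopaminergic library. The median marker kept 5.1% of its whole midbrain level for astrocytes, 11.3% for oligodendrocytes, 17.5% for oligodendrocyte precursors, 7.47% for microglia, 1.54% for endothelium, 4.72% for mural cells, 8.26% for fibroblasts, 8.67% for ependymal and choroid cells and 16.1% for other neurons. Summed levels were 851 to 911 FPKM in whole midbrain and 34.6 to 52.7 in dopaminergic libraries for astrocytes, 2973 to 3449 and 180 to 309 for oligodendrocytes, 159 to 201 and 18.9 to 26.3 for microglia, and 385 to 427 and 64.2 to 77.8 for other neurons. In bulk samples, fewer cells of a type and less RNA per cell cannot be told apart, and this holds for every difference below. The dopaminergic RNA may have been captured on tagged ribosomes. Ribosome binding and RNA carried along in the capture then cannot be told apart from level either.

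Cell adhesion genes of this family were mostly lower in dopaminergic neurons than in whole midbrain, and a short list was higher: Cdh13, Cdh8, Cdh18, Cdh11, Pcdh8 and Pcdhac2. Under TPM only Cdh13 and Cdh8 of these stayed past the threshold, and Cdh18, Cdh11 and Pcdh8 came out slightly below 0. All 6 lay above the median gene, but taking off that median largely undoes the scaling, so this is no separate check. The test was limma's moderated test on log2(FPKM + 1) over the 13106 genes whose mean reached 1 FPKM, two-sided, with Benjamini-Hochberg adjustment and a threshold of 0.05. Of 71 members tested, 6 rose, 53 fell and 12 did not pass. Of the 71, 45 were rows of the gene clusters. Pcdha rows share exons with each other, and so do Pcdhg rows, so these rows are not independent. Counts that pool them lean on the clusters, and both parts are given apart below. Over all genes tested 38.3% rose and 36% fell. For 25 of the 71 the dopaminergic mean was under 1 FPKM, so they passed the filter through whole midbrain alone, and their fall was in part set by that filter. With no filter all 93 members could be fitted: 7 rose, 66 fell and 20 did not pass, against 25.9% of all genes rising and 34.2% falling, and the median log2 change was -0.65 against -0.04 for all genes.

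In the non-clustered group 5 of 26 tested members rose, 16 fell and 5 did not pass. For 2 of the 26, Cdh19 and Pcdh20, the dopaminergic mean was under 1 FPKM. Both are among the 16 and passed the filter through whole midbrain alone, so their fall was in part set by it. Without the filter 6 of 34 rose and 19 fell, with a median log2 change of -0.32. Under TPM 2 rose and 21 fell of the 26, where 17.2% of all genes rose and 56.4% fell. Without whole midbrain library 2 the counts were 5 and 17, where 43.6% of all genes rose and 38.4% fell. Dopaminergic values lay wholly above whole midbrain for 5 of the 34 members and wholly below for 19, against 22.3% and 30.3% of all genes.

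**Figure D1:**
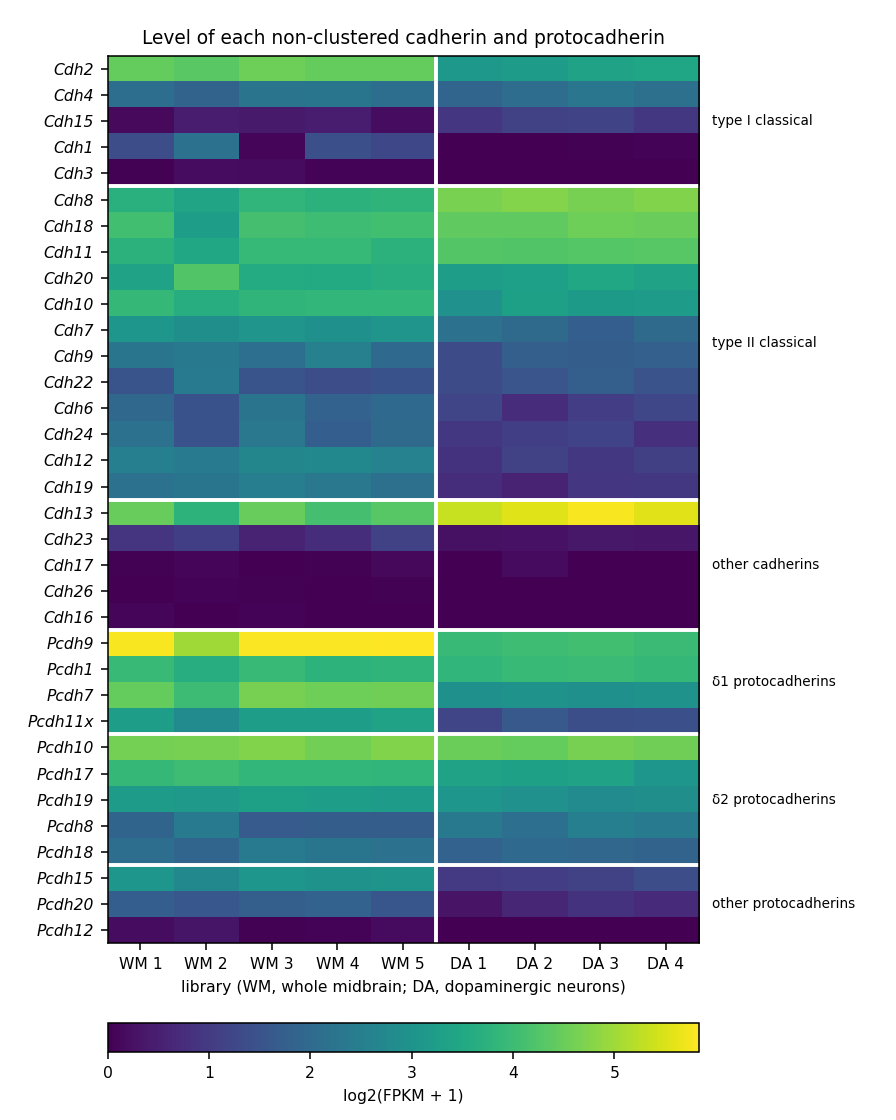
Level of the 34 non-clustered members, as log2(FPKM + 1) by color, in each of 5 whole midbrain (WM) and 4 dopaminergic (DA) libraries, grouped by class. Cdh13 is the brightest row in the dopaminergic libraries at 39.3 to 53.9 FPKM, and Pcdh9 in whole midbrain at 30.9 to 56 FPKM.

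The family's leading genes differed between the groups. In whole midbrain the highest non-clustered levels were those of Pcdh9 (mean 50 FPKM), Pcdh10 (24.3) and Pcdh7 (20.9), with Cdh2 level with Pcdh7 at 20.9. In dopaminergic neurons they were Cdh13 (46.3), Cdh8 (24.9) and Pcdh10 (22.5), followed by Cdh18 (21.1) and Cdh11 (18.4). Neighbors in these orders often overlapped. In whole midbrain Pcdh9 lay above Pcdh10 in every library, and Pcdh10, Pcdh7 and Cdh2 did not separate. In dopaminergic neurons Cdh13 lay above Cdh8 in every library, whereas Cdh8 and Pcdh10, and Pcdh10 and Cdh18, did not separate in all of them. Summed over the Cdh genes, the level was 137 ± 8.15 FPKM (SD, n = 5) in whole midbrain and 152 ± 9.97 (n = 4) in dopaminergic neurons, with overlap. The summed level of non-clustered Pcdh genes was 154 ± 16.4 and 84 ± 2.31 FPKM, with no overlap.

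Cdh13, Cdh8, Cdh18 and Cdh11 together made up 46.1 to 47.5% of the summed non-clustered level in the 4 dopaminergic libraries and 16.4 to 20.8% in the 5 of whole midbrain. A share of a sum within a library does not change with the scaling of that library. These genes were picked for this sum because they rose, so the share is a description with no test.

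Cdh13 encodes T-cadherin, an unusual member with no inner tail that is held in the membrane by a lipid anchor. It lies at chr8:118283755-119323448 on the plus strand (mm10). Its level was 21.3, 12.6, 21.4, 16.2 and 18.8 FPKM in whole midbrain libraries 1 to 5 and 39.3, 45.7, 53.9 and 46.4 FPKM in dopaminergic libraries 1 to 4. Every dopaminergic library was above every whole midbrain library. The means were 18.1 ± 3.71 (SD, n = 5) and 46.3 ± 5.98 (n = 4), 2.57-fold higher, with a log2 change of 1.33 (SE 0.15, limma adjusted p = 2.3e-05). Under TPM the log2 change was 0.72, which is 1.27 above the median gene.

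Cdh8, a type II classical cadherin, lies at chr8:99024471-99416471 on the minus strand. Whole midbrain libraries held 12.1, 9.55, 13.4, 12.4 and 12.8 FPKM and dopaminergic libraries 24.4, 25.8, 23.8 and 25.7 FPKM. The groups did not overlap, and the dopaminergic libraries were close to each other. The mean was 2.06-fold higher in dopaminergic neurons, a log2 change of 1.0 (SE 0.09, limma adjusted p = 5.2e-06). Under TPM the log2 change was 0.40 (limma adjusted p = 0.0464), or 0.95 above the median gene.

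Cdh18 and Cdh11 are also type II cadherins, which pair through a wider binding pocket than type I. Cdh18, at chr15:23036463-23474418, stood at 15.7, 8.63, 16.3, 15.2 and 15.7 FPKM in whole midbrain and 20.2, 20.4, 22.5 and 21.5 in dopaminergic neurons. No values overlapped, but whole midbrain library 2 was far below the other 4. Its log2 change was 0.56 (SE 0.16, limma adjusted p = 0.00966) and 0.40 without that library (limma adjusted p = 3.4e-05), and it did not pass with quantile normalization (0.38, limma adjusted p = 0.113) or under TPM, where it was -0.05, 0.5 above the median gene. Cdh11, at chr8:102632995-102785111, stood at 12.4, 10.2, 13.9, 14 and 12.5 FPKM in whole midbrain and 18.2, 17.9, 18.6 and 18.8 in dopaminergic neurons, again without overlap. The Cdh11 log2 change was 0.52 (SE 0.09, limma adjusted p = 0.000466) and under TPM -0.09, which is 0.46 above the median gene.

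Pcdh8, a δ2-protocadherin also called arcadlin and known to be induced by neuronal activity, was the only δ-protocadherin that rose. It was listed at 2.69, 4.41, 2.18, 2.27 and 2.27 FPKM in whole midbrain and at 4.09, 3.4, 4.7 and 4.31 in dopaminergic neurons. The groups overlapped through whole midbrain library 2, whose value was above those of dopaminergic libraries 1, 2 and 4. The log2 change was 0.47 (SE 0.16, limma adjusted p = 0.0229), 0.61 without that library (limma adjusted p = 0.000164), 0.82 with quantile normalization (limma adjusted p = 0.00146) and -0.02 under TPM. The call was lost without whole midbrain library 3, 4 or 5 or dopaminergic library 3 or 4, with adjusted p of 0.052 to 0.0665. Its exons overlap the opposite-strand gene Gm9748 over 436 bases, and the counting is not stated to use strand.

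Cdh15, M-cadherin, a type I cadherin best known from muscle, was too low to be tested with the filter. Whole midbrain libraries held 0.111, 0.355, 0.345, 0.366 and 0.146 FPKM and dopaminergic libraries 0.906, 1.2, 1.29 and 0.926. Every dopaminergic value was higher, 4.09-fold in the mean, and without the filter the log2 change was 0.72 (limma adjusted p = 0.00011).

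To show the regulatory DNA in front of the higher genes, the 250 bases before the annotated start were read from RefSeq windows on GRCm38.p6, for the 4 non-clustered higher genes that have an entry. The sequences run 5′ to 3′ on the gene's strand, and capitals mark CG dinucleotides, the sites of DNA methylation. Cdh8 is at chr8:99416472-99416721 (minus strand), Cdh18 at chr15:23036213-23036462 (plus), Pcdh8 at chr14:79771313-79771562 (minus) and Cdh15 at chr8:122848124-122848373 (plus).
Cdh8: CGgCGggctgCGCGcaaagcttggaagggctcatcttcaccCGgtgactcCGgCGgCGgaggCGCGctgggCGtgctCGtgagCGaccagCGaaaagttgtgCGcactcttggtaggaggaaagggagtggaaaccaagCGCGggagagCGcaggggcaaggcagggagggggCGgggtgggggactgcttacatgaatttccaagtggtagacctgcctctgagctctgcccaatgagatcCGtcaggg
Cdh18: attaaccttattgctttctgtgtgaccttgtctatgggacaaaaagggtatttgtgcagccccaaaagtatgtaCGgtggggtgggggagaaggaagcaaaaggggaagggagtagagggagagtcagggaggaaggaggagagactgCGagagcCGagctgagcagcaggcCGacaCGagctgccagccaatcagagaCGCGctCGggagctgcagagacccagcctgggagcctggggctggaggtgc
Pcdh8: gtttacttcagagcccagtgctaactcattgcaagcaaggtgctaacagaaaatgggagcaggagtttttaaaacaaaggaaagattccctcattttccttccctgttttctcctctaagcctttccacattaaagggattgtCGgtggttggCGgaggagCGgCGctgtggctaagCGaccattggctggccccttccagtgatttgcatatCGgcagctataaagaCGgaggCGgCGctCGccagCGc
Cdh15: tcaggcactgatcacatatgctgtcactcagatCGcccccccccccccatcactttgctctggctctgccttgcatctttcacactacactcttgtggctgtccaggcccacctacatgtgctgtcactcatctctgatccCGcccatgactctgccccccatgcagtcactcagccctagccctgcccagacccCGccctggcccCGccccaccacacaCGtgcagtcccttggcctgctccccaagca
The Cdh8 window holds 20 CG dinucleotides, Pcdh8 11, Cdh18 8 and Cdh15 5. Over the 25 windows of the 22 non-clustered members that matched, the median was 10, and over all 32851 windows it was 6. On either strand, AAAGGTCA, the site bound by single Nr4a2 molecules, was in 0% of the members' windows and 1.34% of all. TAATCC, the core bound by Pitx3, was in 8% and 6.25%. TATAAA was in 8% and 12.4%, and the Pcdh8 window holds it once, near its end. A match describes letters only and says nothing about binding.

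**Figure D2:**
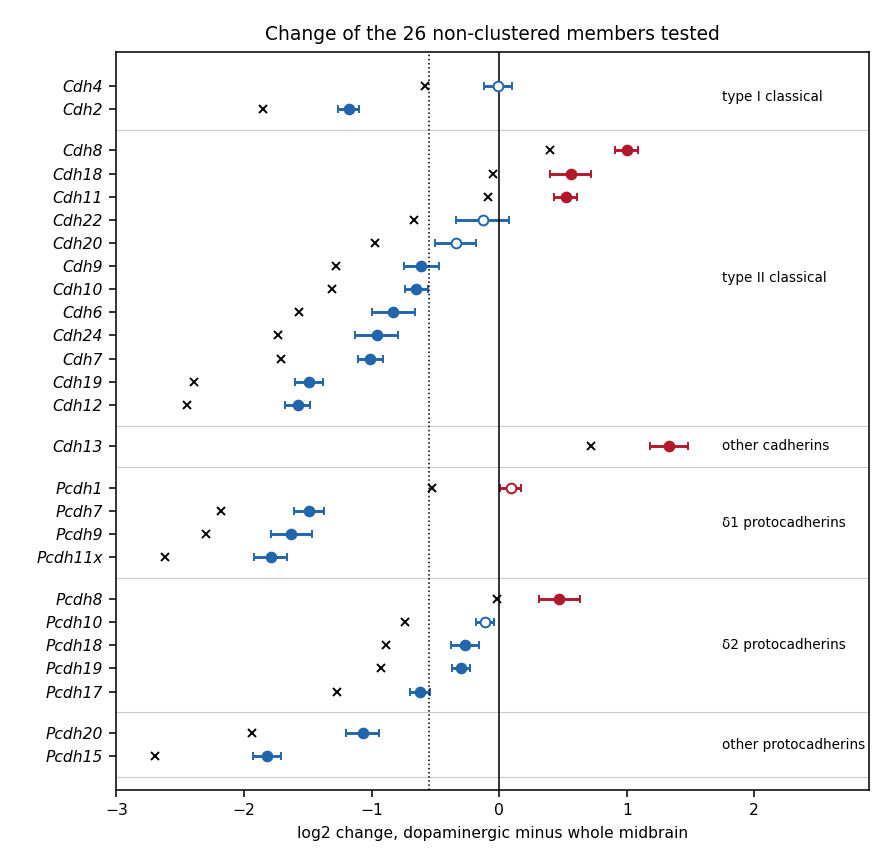
Log2 change, dopaminergic minus whole midbrain, of the 26 non-clustered members tested: circles with SE bars are log2(FPKM + 1), red above and blue below 0, filled where limma's adjusted p was under 0.05. Crosses are the same change under TPM and the dotted line its all-gene median of -0.55. Cdh13 and Cdh8 are right of 0 on both scales, and the crosses of Cdh18, Cdh11 and Pcdh8 lie just left of 0 but right of the dotted line.

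Among type I classical cadherins, Cdh2 (N-cadherin, the main cadherin of neural tissue and of many synapses) fell. It held 20.9, 19.4, 22.4, 20.9 and 21 FPKM in whole midbrain and 7.68, 8.23, 9.21 and 9.74 in dopaminergic neurons. All dopaminergic values were below all others, at 41.7% of the whole midbrain mean, with a log2 change of -1.18 (SE 0.08, limma adjusted p = 5.0e-07). Cdh4 (R-cadherin, the closest relative of Cdh2 among these) stood at 3.35 ± 0.462 FPKM (SD, n = 5) and 3.33 ± 0.496 (n = 4), and it did not pass (log2 change -0.01, SE 0.11). With quantile normalization its change was 0.34 (limma adjusted p = 0.0275), and under TPM -0.58, near the median gene.

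Of the 12 type II cadherins 3 rose, 7 fell and Cdh20 and Cdh22 did not pass. The largest falls were those of Cdh12 and Cdh19. Cdh12, a cadherin of brain neurons, went from 4.74, 4.23, 5.39, 5.64 and 5.03 FPKM to 0.811, 1.17, 0.919 and 1.14 (log2 change -1.58, SE 0.10, limma adjusted p = 3.0e-07). Cdh19, known from Schwann cell precursors, went from 3.58, 3.8, 4.68, 4.01 and 3.46 FPKM to 0.696, 0.497, 0.9 and 0.92 (log2 change -1.49, SE 0.11, limma adjusted p = 9.2e-07). Neither gene's groups overlapped, and dopaminergic levels were 20.2% and 19.3% of whole midbrain. The dopaminergic mean of Cdh19 was 0.753 FPKM, so Cdh19 passed the filter through whole midbrain alone. Cdh7 followed, with 7.43, 6.46, 7.2, 6.55 and 7.26 FPKM against 3.52, 3.02, 2.36 and 3.05 (log2 change -1.01, SE 0.10, limma adjusted p = 5.2e-06).

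Smaller falls, also without overlap, were seen in Cdh24 (2.96 to 1.01 FPKM in the mean), Cdh6 (2.77 to 1.11), Cdh10 (13.1 to 7.96) and Cdh9 (3.83 to 2.17), with log2 changes of -0.96, -0.83, -0.65 and -0.61. With quantile normalization Cdh24, Cdh6 and Cdh9 no longer passed. Cdh20 averaged 12.1 ± 3.38 FPKM in whole midbrain and 9.19 ± 0.692 in dopaminergic neurons, with library 2 of whole midbrain at 18. Its log2 change was -0.34 (limma adjusted p = 0.0744) and -0.19 without that library (limma adjusted p = 0.039). Cdh22 had the same library highest at 4.35 FPKM against 1.6 to 1.87 in the other 4, and dopaminergic values of 1.5 to 2.41. The type II cadherins thus ran from 19.3% to 206% of their whole midbrain level in dopaminergic neurons.

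The δ1-protocadherins Pcdh9, Pcdh7, Pcdh11x and Pcdh1 have a conserved tail motif known to bind protein phosphatase 1. Pcdh9, the most abundant non-clustered member of whole midbrain, was at 53.6, 30.9, 54.7, 54.7 and 56 FPKM there and at 14.6, 15.2, 15.7 and 14.8 in dopaminergic neurons. The lowest whole midbrain value, in library 2, was still above all dopaminergic values, and the log2 change was -1.63 (SE 0.16, limma adjusted p = 7.4e-06). Pcdh7 was at 20.8, 14.9, 23.9, 22.4 and 22.8 FPKM and at 6.67, 6.8, 6.63 and 6.81 (log2 change -1.49, SE 0.12, limma adjusted p = 1.8e-06). Pcdh7 shares 2235 exonic bases with the opposite-strand gene 4932441J04Rik, so reads of the 2 cannot be told apart without strand.

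Pcdh11x, on the X chromosome, was at 8.72, 6.03, 8.66, 8.72 and 9.3 FPKM in whole midbrain and 1.31, 2.07, 1.64 and 1.7 in dopaminergic neurons. The groups were far apart, at 20.3% of the whole midbrain mean (log2 change -1.79, SE 0.13, limma adjusted p = 6.9e-07). Pcdh1 did not follow: it was at 13.1 ± 1.23 FPKM (SD, n = 5) and 14 ± 0.587 (n = 4), with overlap and a log2 change of 0.09 (SE 0.08, limma adjusted p = 0.331), or -0.53 under TPM, 0.02 above the median gene.

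Pcdh10, Pcdh17, Pcdh18, Pcdh19 and Pcdh8 form the δ2 group, in which Pcdh10 and Pcdh17 are known to bring the WAVE actin complex to cell contacts. Pcdh10 was high in both groups: 23.5, 24, 25.3, 23.2 and 25.3 FPKM in whole midbrain and 22, 21, 23.9 and 22.9 in dopaminergic neurons. These values overlapped and the difference did not pass (log2 change -0.11, SE 0.07, limma adjusted p = 0.166), although it did with quantile normalization (-0.38, limma adjusted p = 0.00125) and under TPM. Pcdh17 fell from 13.9 ± 0.756 to 8.72 ± 0.951 FPKM (log2 change -0.62) and Pcdh19, an X-linked gene known from an epilepsy of girls, from 8.4 ± 0.395 to 6.64 ± 0.561 (log2 change -0.30). Pcdh18 went from 3.54 ± 0.558 to 2.73 ± 0.179 FPKM with overlap (log2 change -0.27, SE 0.11, limma adjusted p = 0.036), and with quantile normalization its change was 0.09. The δ2 members other than Pcdh8 kept 62.9% to 92.6% of their whole midbrain level, whereas Pcdh9, Pcdh7 and Pcdh11x kept 20.3% to 32.1%. With Pcdh1 at 107% and Pcdh8 at 149%, the ranges of the δ1 and δ2 classes overlapped, and no difference between the classes was tested.

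Pcdh15 and Cdh23 form the tip link of inner ear hair cells. Pcdh15 had the largest fall of any non-clustered member tested on log2(FPKM + 1): 7.31, 5.64, 7.4, 6.97 and 7.08 FPKM in whole midbrain against 0.984, 1.1, 1.23 and 1.62 (log2 change -1.82, SE 0.11, limma adjusted p = 1.9e-07). Its level in brain is known to be high in oligodendrocyte precursors, whose 5 listed markers summed to 60.7 to 94.9 FPKM in whole midbrain and 10.8 to 18.7 in dopaminergic libraries. Their part in the Pcdh15 difference was not tested. Cdh23, under the filter, was at 0.467 to 1.22 FPKM in whole midbrain and 0.195 to 0.307 in dopaminergic neurons.

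Pcdh20 was at 2.33, 2, 2.38, 2.58 and 1.95 FPKM in whole midbrain and 0.245, 0.533, 0.812 and 0.629 in dopaminergic neurons, a log2 change of -1.07 (SE 0.13, limma adjusted p = 2.5e-05). Its groups were separate, but its dopaminergic mean was 0.555 FPKM, so it passed the filter through whole midbrain alone.

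The remaining non-clustered members were low. Cdh1, E-cadherin of epithelia, was at 1.58, 3.53, 0.0719, 1.7 and 1.41 FPKM in whole midbrain and at most 0.0422 in dopaminergic libraries. Whole midbrain library 3 was far below the other 4, and the summed fibroblast markers were also lowest there, at 14.7 FPKM against 57.4 to 87.5. Their part in the Cdh1 level was not tested. Cdh3 (P-cadherin) had at most 0.145 FPKM, Cdh17 (an intestinal cadherin) at most 0.134, Cdh16 (a kidney cadherin) at most 0.0542 and Cdh26 at most 0.047 in any library. Pcdh12, an endothelial protocadherin, was at 0.0225 to 0.253 FPKM in whole midbrain and listed at 0 in all 4 dopaminergic libraries. The 9 endothelial markers summed to 75.7 to 124 FPKM in whole midbrain and 1.05 to 2.46 in dopaminergic libraries, and their part in the Pcdh12 level was not tested.

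Clustered protocadherin genes lie side by side on chromosome 18. Rows of Pcdha share a median of 55.1% of their 100-base exonic windows with another family row and rows of Pcdhg 43.6%, so reads in the constant exons can be moved between rows by the counting. For Pcdhb the median was 0.207%, and for the non-clustered members no window was shared. A row Pcdha4-g, which spans from Pcdha into Pcdhg, was near 0 in every library. Of 45 clustered rows tested 1 rose, 37 fell and 7 did not pass, and 23 of the 45 had a dopaminergic mean under 1 FPKM. Without the filter 1 of 59 rose and 47 fell, with a median log2 change of -0.72. Under TPM 0 of the 45 rose and 44 fell, where 17.2% of all genes rose and 56.4% fell. With quantile normalization 3 rose and 23 fell, where 38.1% of all genes rose and 31.3% fell.

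**Figure D3:**
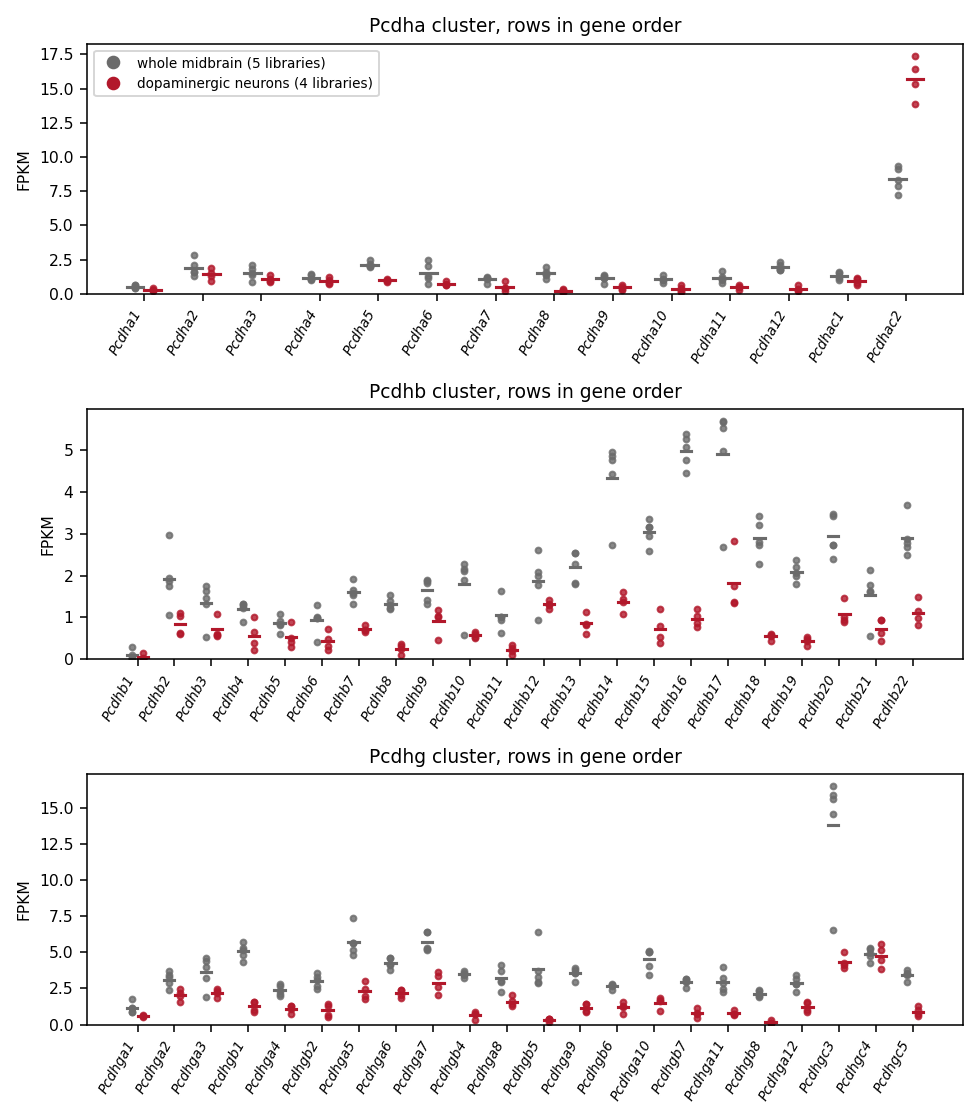
Level in FPKM of each clustered protocadherin row, in order along the chromosome (Pcdha4-g not drawn), with a dot for each library and a bar for the mean of 5 whole midbrain (gray) and 4 dopaminergic (red) libraries. Pcdhac2 has its red dots above its gray ones, at 13.9 to 17.4 against 7.21 to 9.31 FPKM, Pcdhgc4 has them among its gray ones, and the gray means stand above the red ones in all the other rows drawn.

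The summed Pcdhb level was 51.5, 38.1, 50.2, 49.8 and 47.9 FPKM in whole midbrain and 17, 15.8, 17 and 17.3 in dopaminergic neurons, 35.3% of the whole midbrain mean. The summed Pcdhg level was 91, 79.4, 90.8, 90.6 and 90.7 FPKM against 32.1, 34.9, 36.9 and 36.1, or 39.5%. Neither sum overlapped between groups. The Pcdha sum was 27.8, 24.1, 26.8, 26.8 and 26.7 FPKM against 22.6, 25.1, 25.7 and 24.9, at 93% of the whole midbrain mean and with overlap.

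Within Pcdha 1 gene rose. Pcdhac2, a C-type gene with its own regulation, known as the main Pcdha form of serotonergic neurons, was at 9.16, 7.21, 8.33, 7.86 and 9.31 FPKM in whole midbrain and 13.9, 15.3, 16.4 and 17.4 in dopaminergic neurons. Every dopaminergic library was higher (log2 change 0.84, SE 0.09, limma adjusted p = 1.7e-05), and under TPM the change was 0.26 (limma adjusted p = 0.141), 0.81 above the median gene. It made up 29.4 to 34.9% of the Pcdha sum in whole midbrain and 60.8 to 69.6% in dopaminergic neurons, a share that the scaling of the libraries does not touch. Without the C-type genes, the Pcdha sum was 16.7 ± 0.958 FPKM (SD, n = 5) and 7.9 ± 0.795 (n = 4), at 47.2% and with no overlap. Pcdhac1, the other C-type gene of the cluster, was at 1.31 ± 0.249 and 0.923 ± 0.255 FPKM (log2 change -0.26, limma adjusted p = 0.0819), and its change was 0.40 with quantile normalization.

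The alternate Pcdha genes, each normally chosen at random by single neurons, differed in how much of their level they kept. Pcdha1 to Pcdha4, the first 4 in gene order, kept a median of 72.5% of their whole midbrain level, and Pcdha5 to Pcdha12 a median of 42%. Without the filter 1 of the first 4 fell (Pcdha1) and all 8 of the others. With the filter 0 of 3 tested and 3 of 3 tested fell (limma), and Pcdha3 also fell without whole midbrain library 2 (log2 change -0.39, limma adjusted p = 0.0116). Pcdha5, Pcdha6 and Pcdha12, the 3 that fell, had dopaminergic means under 1 FPKM and passed the filter through whole midbrain alone. This boundary was chosen after the values were seen, so it is a description. Among the tested rows Pcdha12 fell most, from 1.72 to 2.36 FPKM down to 0.187 to 0.68 (log2 change -1.09, SE 0.13, limma adjusted p = 2.1e-05), followed by Pcdha5 (log2 change -0.66) and Pcdha6 (-0.51, and 0.14 with quantile normalization, overlapping). Pcdha12 shares 531 exonic bases with the opposite-strand gene Gm10545, and 8.52% of its 100-base windows lie in a gene outside the family. That share was larger on both sides of the boundary, at 41% for Pcdha4 and 31.6% for Pcdha11.

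In the Pcdhb cluster 14 of 16 tested rows fell and 0 rose, and without the filter 18 of 22 fell and 0 rose (limma), with all 22 log2 changes below 0. Over all genes 36% fell with the filter and 34.2% without it. For 11 of the 16 rows, Pcdhb15, Pcdhb16 and Pcdhb18 among them, the dopaminergic mean was under 1 FPKM. These passed the filter through whole midbrain alone. With quantile normalization 8 rows fell, and without whole midbrain library 2 all 16 did, with Pcdhb3 (-0.57, limma adjusted p = 0.00133) and Pcdhb12 (-0.43, limma adjusted p = 0.00259) added. Pcdhb16 had 4.45, 4.77, 5.06, 5.25 and 5.38 FPKM in whole midbrain and 1.21, 1.04, 0.76 and 0.854 in dopaminergic neurons (log2 change -1.61, SE 0.10, limma adjusted p = 1.8e-07). Pcdhb18 went from 2.89 ± 0.446 to 0.546 ± 0.0709 FPKM (log2 change -1.32) and Pcdhb15 from 3.04 ± 0.293 to 0.733 ± 0.355 (log2 change -1.24), both without overlap. Over the 22 rows the dopaminergic level ran from 18.9% to 69.4% of whole midbrain. Each Pcdhb gene is 1 exon, and at most 7.73% of a row's 100-base windows were shared with another row. Pcdhb12, the row at 69.4%, overlaps the opposite-strand gene Gm37446 over 1927 exonic bases. Of its windows 62.3% lie in a gene outside the family, so its reads cannot be told apart from that gene's without strand.

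In the Pcdhg cluster 20 of 21 tested rows fell and Pcdhgc4 did not pass, where 36% of all genes fell. For 7 of the 21, Pcdhgb5 and Pcdhgb8 among them, the dopaminergic mean was under 1 FPKM. These passed the filter through whole midbrain alone. Without the filter 20 of 22 rows fell, where 34.2% of all genes did. With quantile normalization 14 rows fell, where 31.3% of all genes did. The largest falls were in rows of the b type. Pcdhgb5 was at 3.26, 6.42, 3.74, 2.94 and 2.85 FPKM in whole midbrain and 0.151, 0.362, 0.374 and 0.378 in dopaminergic neurons (log2 change -1.84, SE 0.19, limma adjusted p = 8.5e-06). Pcdhgb1 went from 5.08 ± 0.519 to 1.25 ± 0.365 FPKM (log2 change -1.45) and Pcdhgb8 from 2.15 ± 0.221 to 0.16 ± 0.0817 (log2 change -1.44). The 7 Pcdhgb rows kept a median of 24.6% of their whole midbrain level, and the 12 Pcdhga rows 47.5%. Of the 7 Pcdhgb rows 5 had a dopaminergic mean under 1 FPKM, and of the 11 tested Pcdhga rows 1 did. Both types lie interleaved along the cluster and share the same constant exons, and the difference between them was not tested.

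The C-type genes of Pcdhg differed among themselves. Pcdhgc3 was at 15.9, 6.55, 14.6, 15.6 and 16.5 FPKM in whole midbrain and 4.11, 3.95, 4.29 and 4.99 in dopaminergic neurons (log2 change -1.41, SE 0.23, limma adjusted p = 0.000254). Its lowest whole midbrain value, in library 2, was above all dopaminergic values, and 1559 of its exonic bases overlap the opposite-strand gene BC037039. Pcdhgc5 went from 3.46 ± 0.299 to 0.902 ± 0.286 FPKM (log2 change -1.24, SE 0.12, limma adjusted p = 4.5e-06). Its dopaminergic mean was under 1 FPKM, so it passed the filter through whole midbrain alone. Pcdhgc4, known to be needed for the survival of many neurons, was at 4.93, 5.26, 5.28, 4.29 and 4.73 FPKM and at 4.47, 3.87, 5.59 and 5.14, overlapping, with a log2 change of -0.04 (SE 0.10, limma adjusted p = 0.742) and -0.64 under TPM, 0.09 below the median gene. Its share of the Pcdhg sum was 4.74 to 6.62% in whole midbrain and 11.1 to 15.2% in dopaminergic neurons.

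**Figure D4:**
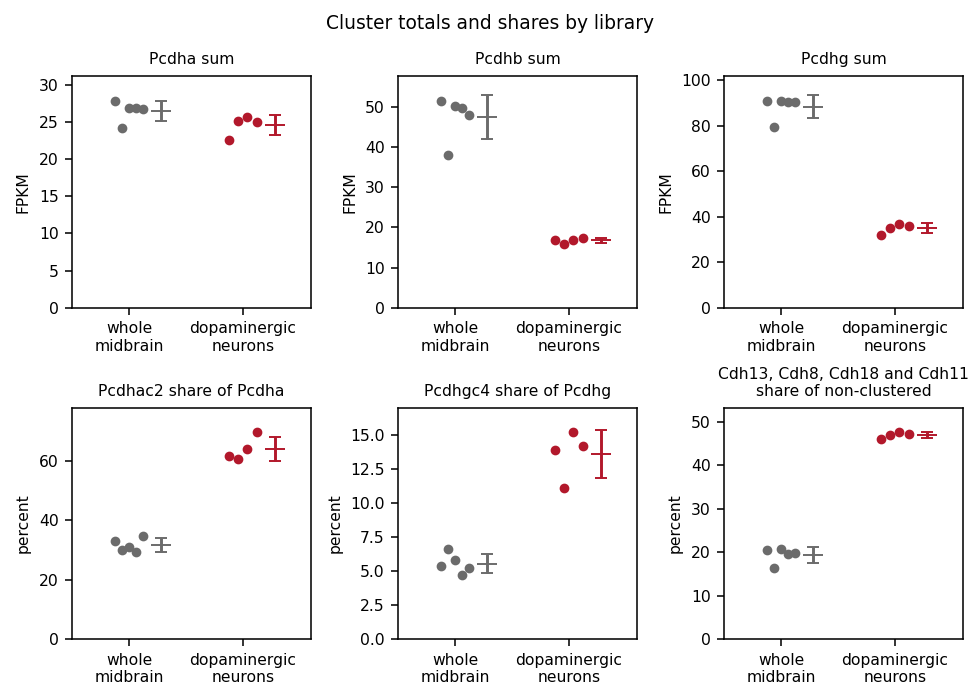
Top row: summed FPKM of the Pcdha, Pcdhb and Pcdhg clusters. Bottom row: the percent of a sum held by Pcdhac2, by Pcdhgc4 and by Cdh13, Cdh8, Cdh18 and Cdh11 together. Dots are libraries (5 whole midbrain, 4 dopaminergic), and the marks beside them the mean ± SD. The Pcdha sums overlap, the Pcdhb and Pcdhg sums do not, and all 3 shares are higher in every dopaminergic library.

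Partners of the family were read from lists of other genes. Of 11 catenins and relatives, which tie cadherin tails to actin, 6 fell and 1 rose, where 36% of all genes fell and 38.3% rose. Under TPM 10 fell and 1 rose, where 56.4% of all genes fell and 17.2% rose. Without whole midbrain library 2, 7 catenins fell and 3 rose, where 38.4% of all genes fell and 43.6% rose. The 2 further rises without that library were Ctnna1 (log2 change 0.40, limma adjusted p = 0.000241, and -0.34 under TPM) and Arvcf (0.24, limma adjusted p = 0.0187, and -0.37 under TPM), named here after their values were seen. The one that rose with all libraries was Ctnnd2 (δ-catenin, a neuronal catenin of synapses), from 31.6 ± 3.06 to 67.4 ± 1.11 FPKM (log2 change 1.08, SE 0.08, limma adjusted p = 1.1e-06, and 0.45 under TPM). Ctnnal1 (-1.82) and Ctnna3 (-1.29) had the largest log2 falls, and β-catenin, Ctnnb1, went from 112 ± 7.68 to 71.7 ± 8.23 FPKM (log2 change -0.64, limma adjusted p = 0.000118). Ctnna3 and Pkp2, both among the 6 that fell, had dopaminergic means of 0.207 and 0.727 FPKM. They passed the filter through whole midbrain alone, so their fall was in part set by it. The median log2 change of the list was -0.38.

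Of 21 rows of the wider cadherin superfamily 9 were tested, the others being too low. Of the 9, 8 fell and 1 rose, where 36% of all genes fell and 38.3% rose. The giant Fat cadherins Fat1 (log2 change -1.65) and Fat3 (-1.16) fell most, and Clstn2, a synaptic calsyntenin, rose from 14.8 ± 0.883 to 24.8 ± 1.23 FPKM (log2 change 0.71, limma adjusted p = 6.1e-06, and 0.10 under TPM with adjusted p = 0.469). Of 14 junction partners 9 fell and 1 rose, beside the same shares of all genes. The scaffold Tjp1 (log2 change -1.92) and Iqgap1 (-1.69) fell most, and Plekha7, a protein of epithelial junctions, rose from 2.27 ± 0.514 to 5.49 ± 0.536 FPKM (log2 change 1.0). Iqgap1, and Dchs1 of the superfamily rows that fell, had dopaminergic means of 0.666 and 0.924 FPKM. They passed the filter through whole midbrain alone, so their fall was in part set by it.

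Of 13 effectors of protocadherins, mostly kinases and parts of the WAVE complex, 7 rose and 4 fell, with a median log2 change of 0.23, and under TPM 0 rose and 7 fell. Over all genes 38.3% rose and 36% fell, and under TPM 17.2% and 56.4%, so the counts that fell were near these shares. Rac1 (log2 change 0.64, -0.00 under TPM and -0.28 with quantile normalization) and Wasf1 (0.63, and 0.02 under TPM) had the largest rises. Dock1 (-2.0) and Cyfip1 (-1.68) had the largest falls. Of 11 tested regulators of the cluster promoters, such as cohesin, 8 fell and 1 rose, where 36% of all genes fell and 38.3% rose. Wiz, a zinc finger partner of histone methyltransferases, rose from 5.04 ± 0.988 to 16.6 ± 1.09 FPKM (log2 change 1.56, SE 0.13, limma adjusted p = 1.5e-06, and 1.05 under TPM), and Smc1a (-1.21) and Setdb1 (-1.16) fell most. Ctcf, which sets promoter choice in the clusters, was at 12.9 ± 1.9 and 10.8 ± 0.299 FPKM and did not pass (log2 change -0.22, limma adjusted p = 0.0816). Whole midbrain library 2 held 9.76 FPKM of it and the other 4 held 12.6 to 14.3, and without that library Ctcf fell (log2 change -0.31, limma adjusted p = 0.00048), as it did under TPM (-0.86, limma adjusted p = 0.00124). The list's counts were then 1 higher and 10 lower, in both settings. Of all genes 38.4% fell without library 2 and 56.4% under TPM.

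**Figure D5:**
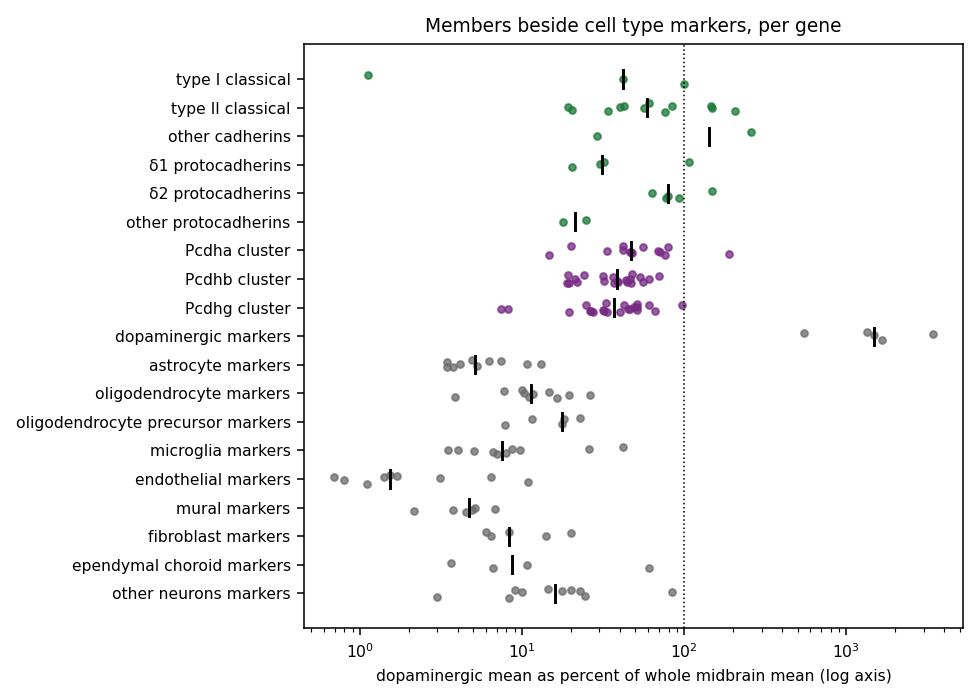
Dopaminergic mean as percent of the whole midbrain mean (log axis), 1 dot per gene, for members by class (green, purple) and markers of cell types (gray), with the median as a black bar and 100 percent dotted. Genes with a whole midbrain mean under 0.5 FPKM (8 of the 93 members) are not drawn. The lowest of the Pcdhg rows, Pcdhgb8 at 7.45% and Pcdhgb5 at 8.23%, lie among the markers of other cells, and Cdh13 at 257% is the highest member drawn.

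Set beside the markers of other cell types, the median member kept more of its level, counted over all members and not only those that fell. The markers were listed because they mark those cells, so this is a description with no test. The median member kept 42.8% of its whole midbrain level, the median non-clustered member 49.7%, and the medians of the 9 marker lists ran from 1.54% to 17.5%. Among the tested non-clustered members, the lowest was Pcdh15 at 17.9%. Cells whose markers fell are present in whole midbrain, and their part in each member's fall was not tested.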

How the data were processed

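RNA of 5 whole midbrain and 4 dopaminergic neuron libraries was amplified from nanogram inputs and read as single ends, per the labels' protocols. The deposited values are FPKM for 24487 rows. TopHat2 2.0.8 and Cufflinks 2.1.1 with mm10 were used, per the submitters' processing notes. No source used here gives the annotation, the options or the use of strand. The authors' FPKM have at most 6 significant digits in the dopaminergic columns and up to 10 in whole midbrain, and this difference cannot be told apart from the groups. FPKM are not counts, so no count model was used, and depth is a rough estimate from low values of single-exon genes.

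Groups come from the sample titles. They were compared with limma 3.58.1 (R 4.3.3) on log2(FPKM + 1) with a mean-variance trend and 7 residual and about 3 prior degrees of freedom, for genes whose mean reached 1 FPKM. P-values were adjusted by Benjamini-Hochberg over all 13106 genes, and the step was tested on simulated data. Shares, sums and figures used Python 3.11.15, pandas 2.3.3 and matplotlib 3.10.9. Alternatives were pseudocounts of 0.1 and 5, no filter, a minimum mean of 5 FPKM, quantile normalization, TPM, median centring, the replicate number as a block, and leaving out each library. Exon overlaps and shared windows of 100 bases used GENCODE M21 exons on GRCm38, the assembly of mm10; promoter windows are RefSeq's on GRCm38.p6, and clustered genes have none printed.

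The members and gene lists were chosen with earlier results of these data known. Named were non-clustered members whose mean reached 1 FPKM, with values per sample at a log2 change of at least 1 or among the 3 highest of a group; other non-clustered members by their range; in each cluster the 3 largest rises and falls and the C-type genes; and in each list the 2 largest rises and falls. Cdh15, Cdh18, Cdh11, Pcdh8, Pcdhac2, Pcdhgc4, Ctnnb1, Ctnna1, Arvcf, Ctcf, Pcdha1, Pcdha3, Pcdhb3, Pcdhb12, Ttr and Chat were given in more detail after their values were seen.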

Additional observations from a re-analysis of the deposited data

Results flagged for a closer look

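In 17 of 96 sets of 4 or 5 libraries, 1 library lay far from the others by Dixon's test, and 14 of the 17 were whole midbrain library 2. Chance flags about 1 in 20 such sets. In that library Pcdh9 was low at 30.9 FPKM against 53.6 to 56 in the other 4, Cdh18 at 8.63 against 15.2 to 16.3, Pcdh11x at 6.03 against 8.66 to 9.3, Cdh10 at 11.4 against 13.2 to 13.7 and Pcdh15 at 5.64 against 6.97 to 7.4. It was high for Cdh20 at 18 FPKM against 9.29 to 11.5, for Cdh22 at 4.35 against 1.6 to 1.87, for Pcdh8 at 4.41 against 2.18 to 2.69 and for Pcdh17 at 15.2 against 13.3 to 13.7. Among clustered rows it was low for Pcdhgc3, at 6.55 FPKM against 14.6 to 16.5, and high for Pcdhgb5, at 6.42 against 2.85 to 3.74. Its summed Pcdhb level was 38.1 FPKM against 47.9 to 51.5, its Pcdhg sum 79.4 against 90.6 to 91, and Pcdhgc3 held 8.25% of that sum against 16 to 18.2%.

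The other 3 were in dopaminergic libraries. Pcdh17 was low in library 4 at 7.31 FPKM against 9 to 9.32. In library 1 Cdh9 was low at 1.5 FPKM against 2.3 to 2.45, and Pcdhgb5 at 0.151 against 0.362 to 0.378. The cause of these gaps was not tested.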

How the results depend on the processing

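Of 40 named members with a test, 33 passed, and 23 of these kept their direction and side of the threshold in all 17 alternatives that tested them: Cdh13 and Cdh8 higher and 21 lower. Scaling moved most. TPM gave 2248 genes higher and 7393 lower over all genes, 2 non-clustered members higher, 0 Pcdha rows higher and 7 lower, and 3 pathway genes higher. It turned the log2 changes of Cdh11 (-0.09), Cdh18 (-0.05), Pcdh8 (-0.02) and Pcdh1 (-0.53). Quantile normalization gave 3 Pcdha rows higher and 1 lower and 8 Pcdhb rows lower, and turned Cdh4 (0.34), Pcdh18 (0.09), Pcdha6 (0.14) and Pcdhac1 (0.40). A minimum mean of 5 FPKM tests 8669 genes and left 2493 genes lower, 8 non-clustered members, 0 Pcdha, 0 Pcdhb, 1 Pcdhg and 21 pathway genes lower, and moved the all-gene median to 0.26. With no filter 9 Pcdha rows were lower.

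Leaving out each library gave 4699 to 5654 genes higher and 4445 to 4974 lower, 4 to 5 non-clustered members higher and 15 to 17 lower, and 2 to 4 Pcdha, 13 to 16 Pcdhb and 19 to 20 Pcdhg rows lower. Same-numbered libraries of the 2 groups did not deviate together (r = -0.0389, -0.0498, 0.0067 and 0.019). This gave no sign of pairing but cannot show that the numbers pair nothing. With the replicate number as a block 4554 genes were higher and 4355 lower, and Pcdh8 (adjusted p = 0.106, limma) and Pcdh18 (0.115) no longer passed. Levels such as those of Cdh16, Cdh17 and Cdh26, listed at 0 in 7, 2 and 3 libraries, are low for the depth.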
